A study of Homo sapiens with 8 samples.

Results

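Transcript levels of 49 genes of the DNA replication machinery were followed in PC3, a human cell line established from prostate cancer, after transfection with RNA directed at PRMT7 or with control RNA. The genes were taken by name from a table of 58735 genes and fall into 11 groups, from origin licensing to chromatin assembly behind the fork. All 49 were found in 1 row each, and all 49 passed a filter of at least 1 FPKM (fragments scaled to gene length in kilobases and to library size) in at least 4 of 8 libraries, which left 13436 genes for testing. The 4 siPRMT7 libraries carry the label PRMT7 knockdown and the 4 siCtrl libraries the label WT. Both groups received synthetic RNA by lipofection and were grown for 48 h more before poly(A)-selected RNA was sequenced. The sample titles use the prefix si and the library names the prefix sh, so the kind of RNA used is not settled. Whether replicates came from separate cultures is not stated, so every p-value measures only the spread between these libraries, which may be technical.

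Replication is prepared in G1 phase, when the origin recognition complex (ORC), CDC6 and CDT1 load the MCM2-7 helicase onto DNA in an inactive form. In S phase the kinase CDC7 with its partner DBF4 lets CDC45 and the GINS complex join the helicase, which then unwinds DNA ahead of the polymerases. RPA coats the single strands, polymerase alpha-primase lays down primers, the sliding clamp PCNA is loaded by replication factor C, and claspin, TIMELESS and TIPIN hold the fork together. Many of these genes are transcribed in G1 and S phase under E2F factors, and they are higher in dividing than in resting cells.

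Promoter sequence was read first, because it is a feature that the choice of genes did not use. Of the 49 genes, 43 had an entry among the RefSeq promoters (GRCh38.p14), which run from 250 bases before to 50 bases after a gene's start. The E2F motif was searched as TTTCCCGC, TTTCGCGC, TTTGCCGC or TTTGGCGC on both strands. A match was held by 19 of the 43, or 44.2%, against 3.33% of all 27305 promoters. Those 27305 were not limited to the genes tested for expression. The CHR element of G2/M genes, searched as TTTGAA or TTCGAA on both strands, was held by 2 of the 43, or 4.65%, against 16.6% of all promoters. Among 41 other replication genes with an entry, described at the end, 4 (9.76%) held an E2F match and 6 (14.6%) a CHR match. The stretches shown are those of 4 genes whose siPRMT7 values all lay below their siCtrl values (DTL, MCM3, MCM6 and POLA1) and of PCNA and MCM7, chosen after their values were seen because their means over all libraries hardly differed between groups. Of the other genes with all siPRMT7 values below their siCtrl values, MCM10, RFC1 and TIMELESS held no E2F match. CLSPN held a match that crosses the start and is not shown, and MCM4 and GINS4 had no entry. Capitals mark the E2F matches, each sequence is written 5′ to 3′ on the gene's strand, and positions count back from the RefSeq start. In MCM6 the matches TTTGGCGC and, on the other strand, TTTCGCGC overlap.
DTL, chr1:212035729-212035747, plus strand, in an exon of DTL in GENCODE: cgtgacgtcagTTTGGCGC
MCM3, chr6:52284898-52284927, minus strand, outside annotated exons: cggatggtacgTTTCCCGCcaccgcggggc
MCM6, chr2:135876482-135876635, minus strand, outside annotated exons: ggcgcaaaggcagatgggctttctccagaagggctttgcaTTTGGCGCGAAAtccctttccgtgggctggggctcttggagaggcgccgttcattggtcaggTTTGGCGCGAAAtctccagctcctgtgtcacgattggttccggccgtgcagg
POLA1, chrX:24693741-24693828, plus strand, outside annotated exons: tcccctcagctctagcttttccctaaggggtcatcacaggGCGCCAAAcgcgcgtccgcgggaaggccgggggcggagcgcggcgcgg
PCNA, chr20:5126634-5126721, minus strand, outside annotated exons: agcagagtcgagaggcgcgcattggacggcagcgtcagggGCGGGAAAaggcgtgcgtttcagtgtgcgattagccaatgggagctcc
MCM7, chr7:100101566-100101595, minus strand, in an exon shared by AP4M1 and MCM7: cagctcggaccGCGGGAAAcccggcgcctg
The 19 genes with an E2F match had a median log2 fold change of -0.05 (13 of 19 lower in siPRMT7) and the 24 without had -0.06 (19 of 24 lower). A match is a run of letters and not a measured binding site.

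The libraries held 14526030 to 15724862 fragments, and 57 to 2086 fragments per library lay behind each of the 49 genes. PRMT7 (ENSG00000132600, chromosome 16), the targeted gene, had 4.62, 4.31, 5.005 and 4.82 FPKM in the siPRMT7 libraries and 5.25, 4.86, 5.10 and 5.25 FPKM in the siCtrl libraries. The groups overlapped, and the log2 difference of -0.10 had a two-sided exact permutation p of 0.0571, where the smallest possible is 0.0286. On the TPM scale, which brings every library to the same total, that p was 0.0286 (log2 difference -0.14). With each library's trend with gene length removed, the log2 difference was -0.04. Its unadjusted limma p was then 0.488, against 0.0826 without that removal. The PRMT7 mean differed by -8.29%, and 3 of 4 siPRMT7 libraries lay below all siCtrl libraries. KLK3, which PC3 cells lack, was listed at 0 FPKM in all 8 libraries, KRT8 and KRT18 were at 48.97 to 66.8 FPKM, EPCAM at 6.87 to 8.06 and VIM at 124 to 155 FPKM. Of markers of other cells, PTPRC was at most 0.194 FPKM, PECAM1 at 2.83 to 3.64 and COL1A1 at 6.13 to 7.53 FPKM in all libraries. On the first principal component siPRMT7 replicate 2 stood apart, at 28.4 against -11.9 to 7.36 for the other 7. Values without it are therefore given for the subcomplexes and for many of the members.

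Across the 49 genes, transcript levels were slightly lower in siPRMT7 than in siCtrl cells, and 0 of the 49 passed limma's test at an adjusted p of 0.05 over all 13436 genes, where 0.0149% of all genes passed. Fold changes are differences of mean log2(FPKM + 1), siPRMT7 over siCtrl, which understates changes of low genes. Of the 49 genes 36 had a log2 fold change below 0, or 73.5%, against 50.5% of all genes tested, and the median was -0.06 against -0.0015 over all genes. On the TPM scale 42 were below 0, but so were 61.5% of all genes, whose median was then -0.04. At an unadjusted p under 0.05, 11 were lower, or 22.4%, against 5.49% of all genes, and 0 were higher, against 7.67%. In 10 genes every siPRMT7 library lay below every siCtrl library, which was so for 4.43% of all genes, and in 0 genes every siPRMT7 library lay above, against 4.14%. The 11 and the 10 share all but ORC1, whose groups overlapped. The 49 genes were chosen with earlier results of these data known, so these shares describe the list and do not test it. In a bulk library, fewer cells in S phase and less RNA per cell cannot be told apart.

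The count of 11 was 7 without siPRMT7 replicate 3 (3.96% of all genes in that fit), siCtrl replicate 2 (4.01%) or siCtrl replicate 3 (4.59%), and 6 without siCtrl replicate 4 (3.44%). With genes of at least 5 FPKM it was 5 of the 34 then tested, against 5.95% of all genes. Under voom and library weights 0 of the 49 genes passed an adjusted p of 0.05, with 10 and 13 lower at an unadjusted p under 0.05, against 6.52% of all genes under voom and 7.41% under library weights. On the TPM scale the 10 genes with no overlap remained and 4 joined them, against 5.57% of all genes. Leaving out a library can only add to such genes. Without siPRMT7 replicate 2, CDT1, FEN1, GINS1 and RFC3 made them 14, against 6.62% of all genes.

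**Figure D1:**
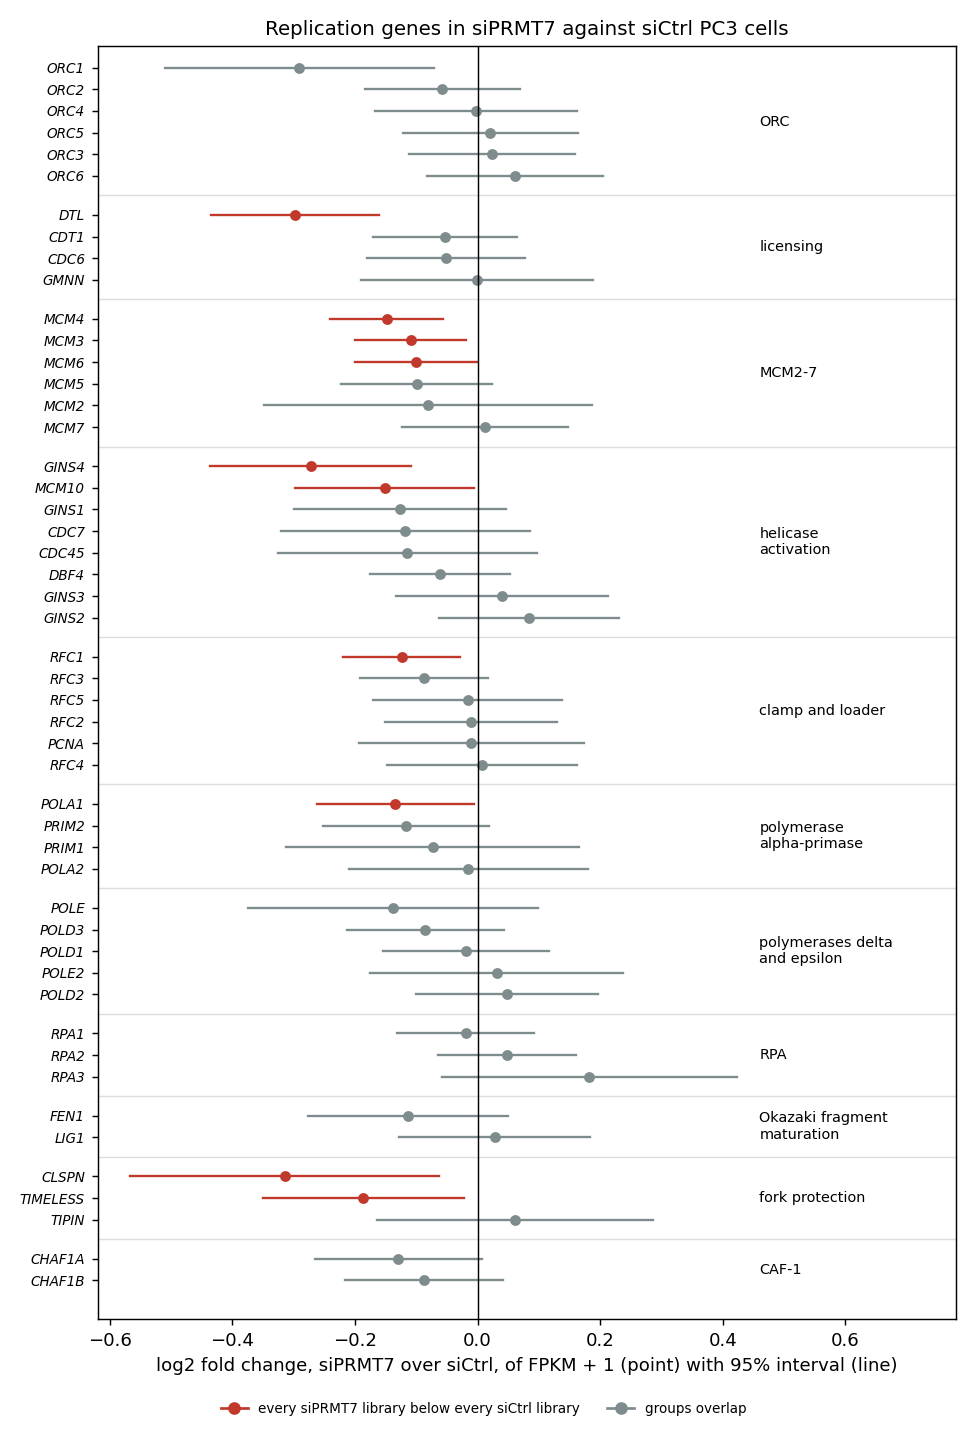
Log2 fold change of the 49 replication genes (x axis, siPRMT7 over siCtrl, of FPKM + 1), grouped by subcomplex. Points are fold changes and lines the 95% limma intervals; the 10 genes in red had every siPRMT7 library below every siCtrl library, and none of the 49 passed an adjusted p of 0.05.

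Per siPRMT7 library, 38, 27, 35 and 40 of the 49 genes lay below the siCtrl mean in replicates 1, 2, 3 and 4, against 51.3%, 47.6%, 49.04% and 50.0% of all genes in the same order. The count in replicate 2 lay nearest to that of all genes. All 4 siPRMT7 libraries lay below that mean in 18 of the 49 genes, against 15.5% of all genes. The mean deviation of the 49 genes from the siCtrl mean, on the log2(FPKM + 1) scale, was -0.080, -0.035, -0.060 and -0.084 in the siPRMT7 libraries and 0.03, -0.0068, -0.01 and -0.0095 in the siCtrl libraries. By that measure siPRMT7 replicate 2 was the closest to the siCtrl libraries, and the groups did not overlap.

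The origin recognition complex differed in ORC1 alone at an unadjusted p under 0.05. ORC1 (ENSG00000085840, chromosome 1), the subunit whose level oscillates through the cell cycle in human cells, had 3.89, 3.52, 4.45 and 4.95 FPKM in the siPRMT7 libraries and 5.12, 6.18, 4.81 and 5.28 FPKM in the siCtrl libraries. Its siPRMT7 replicate 4 lay above siCtrl replicate 3, so the groups overlapped in that pair only. The log2 fold change was -0.29 (SE 0.0971) with a limma adjusted p of 0.286. Without siPRMT7 replicate 2, the lowest library for ORC1, the log2 fold change was -0.23 and the limma adjusted p 0.351. The other 5 subunits, ORC2 to ORC6, had log2 fold changes between -0.06 and 0.06, and 3 of them were above 0. ORC5 was at -0.03, ORC4 at -0.06 and ORC6 at 0.0014 without siPRMT7 replicate 2. ORC6, the smallest and most loosely held subunit, was the most abundant per length at 9.38 ± 0.920 FPKM in siPRMT7 and 8.93 ± 0.270 FPKM in siCtrl cells (SD, n = 4 each). ORC1 changed places with ORC4 as the lowest subunit by mean FPKM. ORC1 and ORC4 were at 4.20 and 4.88 FPKM in siPRMT7 cells against 5.35 and 4.87 FPKM in siCtrl cells. In each group the ORC4 mean lay between the lowest and the highest ORC1 library.

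Among the licensing regulators DTL had the smallest p of all 49 genes. DTL (ENSG00000143476, chromosome 1), which directs the CUL4-DDB1 ubiquitin ligase to CDT1 on chromatin in S phase, had 9.45, 8.06, 9.98 and 9.37 FPKM in the siPRMT7 libraries and 11.8, 11.2, 11.5 and 11.6 FPKM in the siCtrl libraries. The highest siPRMT7 library was thus below the lowest siCtrl library, and the siCtrl libraries lay close together. The mean differed by -20.1%, with a log2 fold change of -0.30 (SE 0.0607) and a limma adjusted p of 0.155. Without siPRMT7 replicate 2, the lowest library, the log2 fold change was -0.24.

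CDT1, the loading factor that DTL marks for destruction, and GMNN, which encodes the CDT1 inhibitor geminin, had overlapping groups. CDT1 had 7.58, 8.72, 7.92 and 7.86 FPKM in the siPRMT7 libraries and 8.27, 7.98, 8.35 and 8.80 FPKM in the siCtrl libraries. GMNN had 8.47, 11.3, 10.5 and 9.29 FPKM in the siPRMT7 libraries and 10.7, 10.03, 9.55 and 9.16 FPKM in the siCtrl libraries. For CDT1 the log2 fold change was -0.05 (SE 0.0522) and the limma adjusted p 0.657, and for GMNN -0.00097 (SE 0.0836) and 0.997. Both pairs of groups overlapped, with 95% limma intervals of the log2 fold change from -0.17 to 0.07 for CDT1 and from -0.19 to 0.19 for GMNN. Without siPRMT7 replicate 2 the log2 fold changes were -0.09 and -0.06, and the groups of CDT1 no longer overlapped. The log2 ratio of CDT1 to GMNN was -0.26 ± 0.104 in siPRMT7 and -0.21 ± 0.127 in siCtrl libraries (SD, n = 4 each), a difference of -0.05 with a two-sided exact permutation p of 0.486. CDC6, the ATPase that works with ORC in loading, had 5.42 ± 0.418 FPKM in siPRMT7 and 5.64 ± 0.178 FPKM in siCtrl cells.

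The helicase MCM2-7 had 3 subunits, MCM3, MCM4 and MCM6, whose groups did not overlap, and 5 of 6 with a log2 fold change below 0. MCM4 (ENSG00000104738, chromosome 8) had 16.0, 16.2, 15.7 and 14.8 FPKM in the siPRMT7 libraries and 17.8, 17.2, 17.3 and 17.5 FPKM in the siCtrl libraries. The siCtrl libraries lay close together and replicate 4 was the lowest of the siPRMT7 libraries. Its log2 fold change was -0.15 (SE 0.0409) and its limma adjusted p 0.222. MCM3 (ENSG00000112118, chromosome 6) had 28.97, 28.4, 27.1 and 29.5 FPKM in the siPRMT7 libraries and 31.7, 30.6, 30.4 and 30.5 FPKM in the siCtrl libraries. Its log2 fold change was -0.11 (SE 0.0401), with a limma adjusted p of 0.312. MCM6 (ENSG00000076003, chromosome 2), the gene with 4 E2F matches shown above, had 15.01, 15.1, 14.7 and 13.7 FPKM in the siPRMT7 libraries and 15.3, 15.5, 16.1 and 16.1 FPKM in the siCtrl libraries. Here the groups nearly touched, and the log2 fold change was -0.10 (SE 0.0441, limma adjusted p = 0.379).

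The subunits of this ring are present once each in the protein complex, whereas their FPKM values were not equal. Per length, MCM5 was the lowest at 7.33 ± 0.475 FPKM in siPRMT7 and 7.91 ± 0.347 FPKM in siCtrl cells, and MCM3 the highest at 28.5 ± 1.07 FPKM in siPRMT7 and 30.8 ± 0.605 FPKM in siCtrl cells (SD, n = 4 each). The order MCM5, MCM2, MCM6, MCM4, MCM7, MCM3 was the same in both groups, and MCM3 exceeded MCM5 by 3.89 times in each. The annotated length that FPKM divides by was 7338 bases for MCM5 and 3650 for MCM3. Their fragments per library were 766 to 958 and 1483 to 1838, so part of that ratio comes from length. MCM7 and MCM3 lay within their spread in siPRMT7 cells, at 28.4 ± 1.53 and 28.5 ± 1.07 FPKM. MCM7, whose promoter also held E2F matches, had a log2 fold change of 0.01, with a 95% interval from -0.12 to 0.15, and of -0.0048 without siPRMT7 replicate 2. MCM2 had 10.00, 6.86, 9.55 and 10.3 FPKM in the siPRMT7 libraries and 8.99, 9.22, 9.36 and 11.2 FPKM in the siCtrl libraries. It was lowest in siPRMT7 replicate 2, without which its log2 fold change was 0.04 instead of -0.08, and 23.6% of its exonic bases are shared with genes on the opposite strand.

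**Figure D2:**
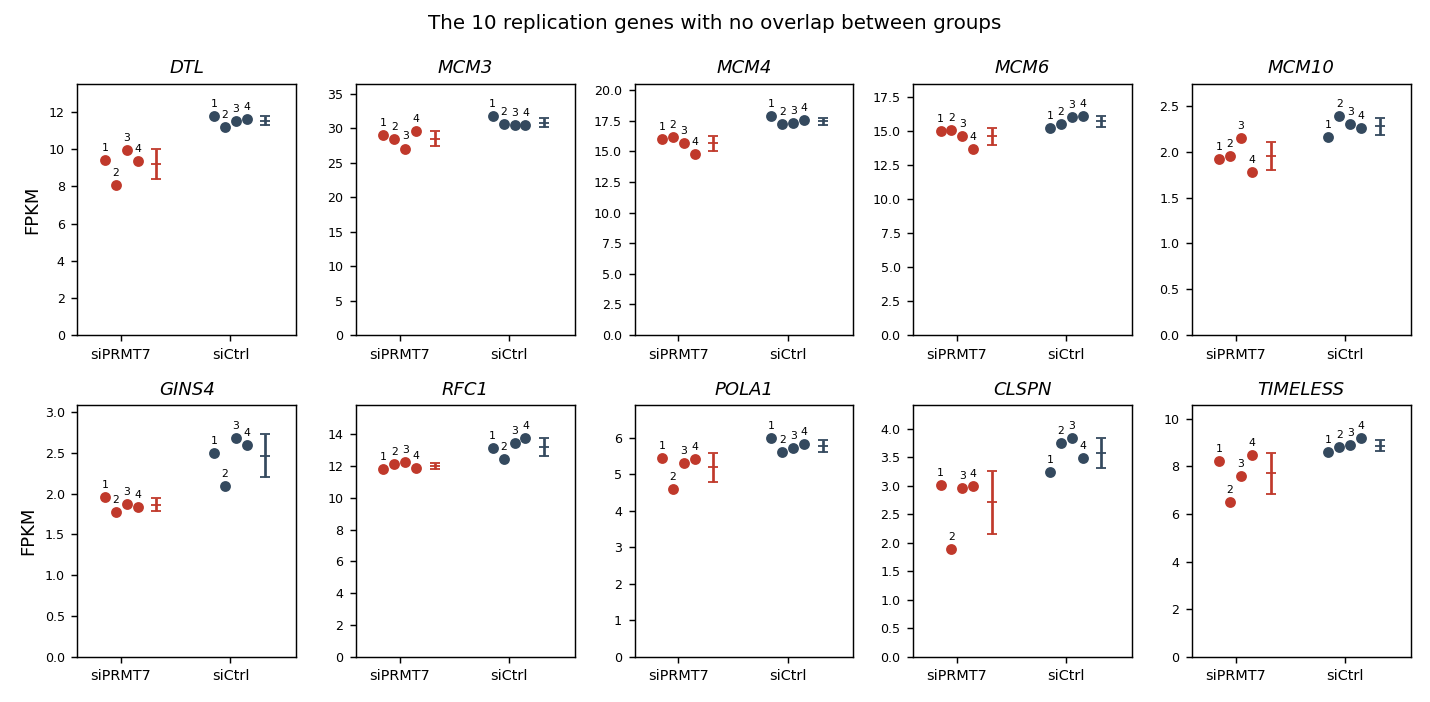
FPKM (y axis, from 0) of the 10 replication genes whose groups did not overlap, per library, with the replicate number above each point and mean ± SD (n = 4) beside the points. In each panel the siPRMT7 libraries all lie below the siCtrl libraries. The gap is wide for DTL and narrow for MCM6, MCM10, RFC1 and TIMELESS.

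Of the factors that activate the helicase, GINS4 and MCM10 were lower with no overlap. GINS4 (ENSG00000147536, chromosome 8), which encodes the SLD5 subunit of GINS, had 1.96, 1.78, 1.87 and 1.84 FPKM in the siPRMT7 libraries and 2.495, 2.09, 2.68 and 2.59 FPKM in the siCtrl libraries. The siPRMT7 libraries lay close together and siCtrl replicate 2 was the nearest to them. GINS4 had a log2 fold change of -0.27 (SE 0.0728) and a limma adjusted p of 0.216. Genes on the opposite strand share 23.6% of the exonic bases of GINS4, and the sources do not state a strand setting for counting. MCM10 (ENSG00000065328, chromosome 10), which acts in the start of unwinding, had 1.92, 1.95, 2.15 and 1.78 FPKM in the siPRMT7 libraries and 2.16, 2.38, 2.30 and 2.26 FPKM in the siCtrl libraries. The siPRMT7 replicate 3 value lay just under siCtrl replicate 1, and the log2 fold change was -0.15 (SE 0.0648, limma adjusted p = 0.367).

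The GINS subunits, which form a tetramer of GINS1 to GINS4, did not all have fold changes of the same sign. The log2 fold changes were -0.13 for GINS1 (95% limma interval -0.30 to 0.05), 0.08 for GINS2 (-0.06 to 0.23) and 0.04 for GINS3 (-0.13 to 0.21). Without siPRMT7 replicate 2, the highest library for GINS3, that gene was at -0.02 and GINS2 at 0.06. GINS1 was at 6.64, 7.97, 6.48 and 6.03 FPKM in the siPRMT7 libraries and 7.80, 7.76, 7.30 and 6.98 FPKM in the siCtrl libraries. Without siPRMT7 replicate 2, the highest of all 8 libraries, the groups of GINS1 no longer overlapped and the log2 fold change was -0.20. Whether the GINS subunits differ from each other in their change was not tested. CDC7, DBF4 and CDC45, the kinase, its activator and the helicase cofactor, had log2 fold changes of -0.12, -0.06 and -0.11 with overlapping groups. CDC45 was at 3.56 FPKM in siPRMT7 replicate 4, against 4.47 to 4.58 FPKM in the other siPRMT7 libraries and 4.04 to 5.26 FPKM in siCtrl.

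PCNA was the highest of the 49 genes in FPKM, and its groups overlapped. It had 64.8, 82.5, 72.4 and 66.3 FPKM in the siPRMT7 libraries and 73.0, 74.6, 74.9 and 64.8 FPKM in the siCtrl libraries. The siPRMT7 libraries held both the highest and nearly the lowest value, and the 95% limma interval of the log2 fold change ran from -0.19 to 0.17. That fold change was -0.0099 with all libraries, and -0.08 both without siPRMT7 replicate 2, the highest library, and with a length trend removed. Of the clamp loader, RFC1 (ENSG00000035928, chromosome 4), its large subunit, had 11.8, 12.1, 12.2 and 11.9 FPKM in the siPRMT7 libraries and 13.1, 12.4, 13.4 and 13.7 FPKM in the siCtrl libraries. The groups did not overlap, with siCtrl replicate 2 nearest to the siPRMT7 libraries. RFC1 thus had a log2 fold change of -0.12 (SE 0.0423) and a limma adjusted p of 0.291. The small subunits RFC2, RFC3, RFC4 and RFC5 had log2 fold changes of -0.01, -0.09, 0.0071 and -0.02, all with intervals that include 0. Without siPRMT7 replicate 2 they had -0.07, -0.11, -0.06 and 0.0074 in that order, and the groups of RFC3 no longer overlapped. RFC5 and RFC3 were the lowest of the loader, at 8.06 ± 0.790 and 8.09 ± 0.411 FPKM in siPRMT7 and 8.14 ± 0.416 and 8.65 ± 0.189 FPKM in siCtrl cells (SD, n = 4 each), and these neighbours did not differ beyond their spread in siPRMT7 cells.

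All 4 genes of polymerase alpha-primase had a log2 fold change below 0 (3 of 4 with a length trend removed), and the groups of POLA1 did not overlap. POLA1 (ENSG00000101868, chromosome X), the catalytic subunit, had 5.45, 4.60, 5.31 and 5.41 FPKM in the siPRMT7 libraries and 5.99, 5.61, 5.72 and 5.83 FPKM in the siCtrl libraries. Replicate 2 was the lowest siPRMT7 library and stood apart from the other siPRMT7 libraries. The log2 fold change was -0.13 (SE 0.0569, limma adjusted p = 0.365), and -0.09 without that library. The primase subunits PRIM2 and PRIM1 had -0.12 and -0.07, and the regulatory subunit POLA2 had -0.02. Both primase subunits had -0.15 and POLA2 -0.04 without siPRMT7 replicate 2. PRIM1 and POLA2 were measured on 57 to 137 fragments per library, and 21.6% and 35.1% of their exonic bases, in that order, are shared with other genes.

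For the polymerases that extend the primers, 0 of 5 genes reached an unadjusted p under 0.05 in limma, and 3 of 5 had log2 fold changes below 0. The smallest p was that of POLD3, an accessory subunit of polymerase delta. POLD3 had 6.12, 5.89, 6.48 and 5.395 FPKM in the siPRMT7 libraries and 6.32, 6.13, 6.46 and 6.62 FPKM in the siCtrl libraries. Its siPRMT7 replicate 3 lay among the siCtrl libraries, and the log2 fold change was -0.08 (SE 0.0565, limma adjusted p = 0.518). POLE, the catalytic subunit of the leading strand polymerase epsilon, had 5.50, 3.56, 4.78 and 5.12 FPKM in the siPRMT7 libraries and 5.70, 5.17, 4.93 and 5.27 FPKM in the siCtrl libraries. Its log2 fold change was -0.14, and -0.03 without siPRMT7 replicate 2. At 16609 bases POLE was the longest of the 49 genes. POLD1, POLD2 and POLE2 had -0.02, 0.05 and 0.03, and without siPRMT7 replicate 2 they had 0.03, 0.03 and -0.02.

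The 3 genes of RPA had a median log2 fold change of 0.05, which was 0.02 without siPRMT7 replicate 2 and 0.0012 with a length trend removed. RPA3, its smallest subunit, had 4.90, 7.19, 6.51 and 5.11 FPKM in the siPRMT7 libraries and 4.87, 4.88, 5.56 and 4.91 FPKM in the siCtrl libraries. Replicates 2 and 3 of siPRMT7 were high and the other siPRMT7 libraries lay within the siCtrl range. The log2 fold change was 0.18 (SE 0.106, limma adjusted p = 0.473), the highest of the 49 genes, and 0.10 without siPRMT7 replicate 2. RPA2 and RPA1 had 0.05 and -0.02. RPA2 was at 28.1 ± 0.961 FPKM in siPRMT7 and 27.2 ± 1.601 FPKM in siCtrl cells, and RPA1 at 12.5 ± 0.529 and 12.7 ± 0.649 FPKM, in the same order of groups (SD, n = 4 each).

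FEN1 and LIG1, the nuclease and the ligase that finish Okazaki fragments, had log2 fold changes of -0.11 and 0.03. FEN1 had 30.6, 38.8, 33.05 and 32.7 FPKM in the siPRMT7 libraries and 39.2, 34.6, 36.6 and 35.7 FPKM in the siCtrl libraries. The value of siPRMT7 replicate 2 lay within the siCtrl range and the other siPRMT7 libraries lay below it. With all libraries the limma adjusted p was 0.505 (SE 0.0723), and without siPRMT7 replicate 2 the log2 fold change was -0.18.

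In the fork protection group CLSPN and TIMELESS were lower with no overlap and TIPIN was not. CLSPN (ENSG00000092853, chromosome 1), which encodes claspin, the adaptor by which ATR activates CHK1 at stalled forks, had 3.01, 1.88, 2.97 and 2.99 FPKM in the siPRMT7 libraries and 3.25, 3.74, 3.83 and 3.49 FPKM in the siCtrl libraries. Replicate 2 was far below the other siPRMT7 libraries, which themselves lay below every siCtrl library. The log2 fold change was -0.31 (SE 0.112, limma adjusted p = 0.298), the lowest of the 49 genes, and -0.20 without that library. TIMELESS (ENSG00000111602, chromosome 12), which travels with the helicase as a dimer with TIPIN, had 8.24, 6.51, 7.59 and 8.47 FPKM in the siPRMT7 libraries and 8.60, 8.80, 8.88 and 9.18 FPKM in the siCtrl libraries. Here too replicate 2 was the lowest siPRMT7 library. The log2 fold change was -0.19 (SE 0.0724, limma adjusted p = 0.330), and -0.12 without it. TIPIN was at 4.98 ± 0.725 FPKM in siPRMT7 and 4.72 ± 0.582 FPKM in siCtrl cells (SD, n = 4 each), with 21.0% of its exonic bases shared with another gene. Its log2 fold change was 0.06, and -0.02 without siPRMT7 replicate 2.

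CHAF1A and CHAF1B, subunits of the histone chaperone CAF-1 that PCNA brings to new DNA, had log2 fold changes of -0.13 and -0.09. CHAF1A had 8.26, 8.63, 8.56 and 9.08 FPKM in the siPRMT7 libraries and 9.80, 9.25, 8.65 and 10.5 FPKM in the siCtrl libraries. The overlap was made by siCtrl replicate 3, which lay below siPRMT7 replicate 4. The limma adjusted p was 0.392 (SE 0.0603).

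Set side by side, the subcomplexes had median log2 fold changes from -0.19 for fork protection (3 genes), -0.12 for helicase activation (8), -0.11 for CAF-1 (2), -0.10 for MCM2-7 (6) and -0.095 for polymerase alpha-primase (4) to -0.05 for licensing (4) and -0.04 for Okazaki fragment maturation (2). Polymerases delta and epsilon (5) had -0.02, the clamp and its loader (6) -0.01, ORC (6) 0.0089 and RPA (3) 0.05. Sizes and order moved without siPRMT7 replicate 2. Helicase activation then had -0.13, fork protection -0.12, polymerase alpha-primase -0.12, CAF-1 -0.10, MCM2-7 -0.09 and licensing -0.09. Okazaki fragment maturation had -0.08, the clamp and its loader -0.07, ORC -0.04, polymerases delta and epsilon -0.02 and RPA 0.02. The mean deviations per library of MCM2-7 ran from -0.13 to -0.06 in siPRMT7 and from -0.05 to 0.04 in siCtrl libraries. Those of the licensing group ran from -0.19 to -0.04 in siPRMT7 and from -0.02 to 0.03 in siCtrl libraries, and those of fork protection from -0.25 to -0.08 and from -0.03 to 0.05. In these 3 groups the siPRMT7 and siCtrl libraries did not overlap, whereas in the other 8 they did. Within the 3 groups, single genes with no overlap were DTL in licensing, MCM3, MCM4 and MCM6 in MCM2-7, and CLSPN and TIMELESS in fork protection. Their other genes, among them CDC6, CDT1, GMNN and TIPIN, overlapped, so a group mean does not stand for each of its genes. In helicase activation and polymerase alpha-primase the overlap came from siPRMT7 replicate 2, at -0.03 and -0.02, since the other siPRMT7 libraries lay below all siCtrl libraries. Differences between subcomplexes were not tested.

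**Figure D3:**
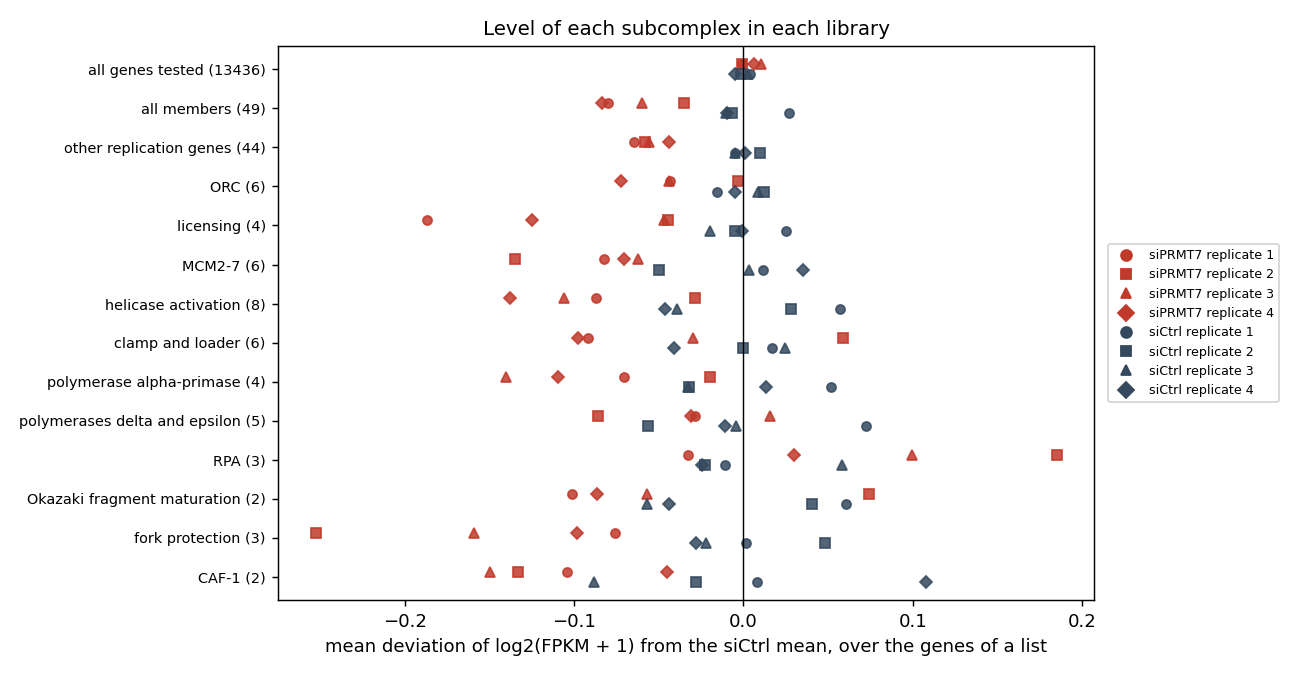
Mean deviation of log2(FPKM + 1) from the siCtrl mean (x axis) over the genes of each subcomplex, in each of the 8 libraries (number of genes in brackets). Red siPRMT7 symbols lie left of all dark siCtrl symbols for all 49 genes together, the other replication genes, licensing, MCM2-7 and fork protection, and siPRMT7 replicate 2 is the rightmost for RPA and the leftmost for fork protection.

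Library siPRMT7 replicate 2 took extreme values in both directions, and these tended to go with gene length, with exceptions such as ORC4 and ORC1. It was the highest of the 8 libraries for 15 of the 49 genes, of median length 3232 bases, and the lowest for 9, of median length 5411 bases. Such counts in a single direction were not particular to it. The siCtrl replicate 1 was also the highest for 15 genes, and siPRMT7 replicates 1 and 4 were the lowest for 13 and 10. In the other direction these libraries had few, with siCtrl replicate 1 the lowest for 3 genes and siPRMT7 replicates 1 and 4 the highest for 1 each. Across the 49 genes, Spearman's rho between gene length and the deviation from the siCtrl mean was -0.50 in siPRMT7 replicate 2. It was 0.01, -0.18 and -0.07 in siPRMT7 replicates 1, 3 and 4. Across all 13436 genes it was 0.02, -0.39, -0.30 and -0.17 in siPRMT7 replicates 1 to 4 and -0.04, 0.03, -0.21 and 0.17 in siCtrl replicates 1 to 4, each siCtrl library set against the other 3. Within the 49 genes the siCtrl libraries had -0.06, -0.19, -0.11 and 0.41, so siCtrl replicate 4 leaned the other way. These are descriptions across genes of shared libraries, and the median lengths of the 49 genes and of all genes tested were alike at 4309 and 4332.5 bases. With each library's length trend removed, an alternative chosen after the data were seen, 36 of the 49 genes were again lower (46.4% of all genes), the median was -0.06 (0.0094 over all genes), and 8 genes had no overlap (3.63% of all genes). Of the 10 genes with no overlap 7 remained, without MCM4, MCM10 and RFC1, and RFC3 joined them.

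**Figure D4:**
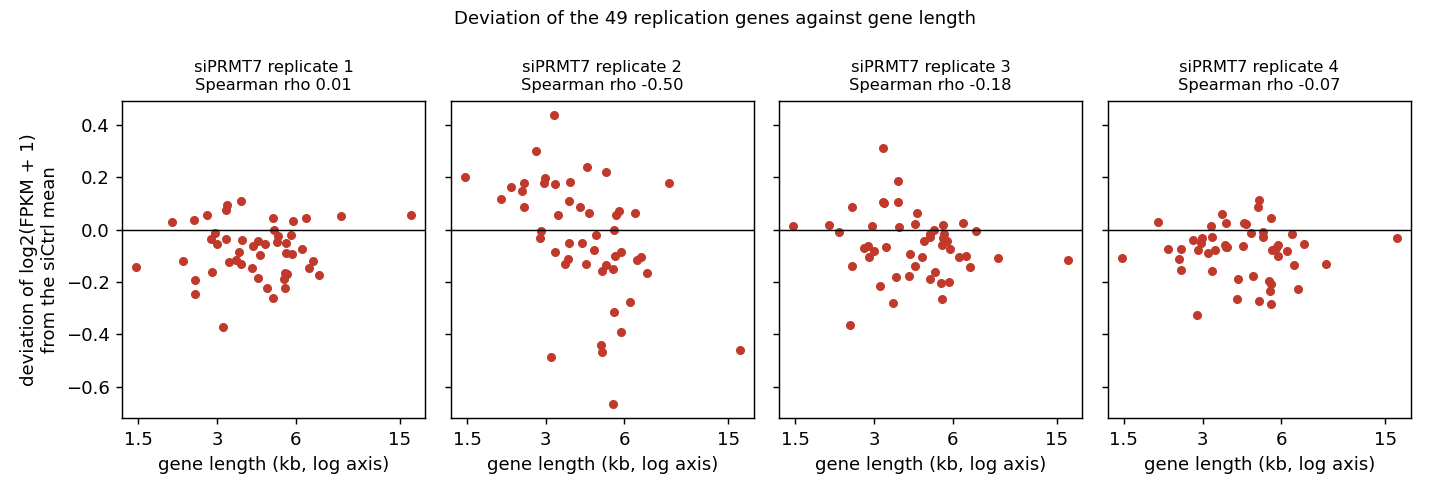
Deviation of log2(FPKM + 1) from the siCtrl mean (y axis) against gene length (x axis, log scale) for the 49 genes in each siPRMT7 library, with Spearman's rho above each panel. The slope is visible in replicate 2 (rho -0.50), where shorter genes tend to lie higher than longer ones with exceptions both ways, and weak in the other panels.

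Genes that work beside the 49 in replication were taken from a list of 48, of which 44 were tested, and MCM9, RNASEH2A, RNASEH2B and MMS22L were not. Their median log2 fold change was -0.05, against -0.0015 over all genes, and 33 of 44 were below 0, against 50.5% of all genes. At an unadjusted p under 0.05 in limma, 8 were lower and 1 higher, against 5.49% and 7.67% of all genes. In 8 every siPRMT7 library lay below every siCtrl library, against 4.43%, and 0 passed an adjusted p of 0.05, against 0.0149%. With a length trend removed the median was -0.04 (0.0094 over all genes) and 29 were lower (46.4% of all genes). Then 6 were lower at an unadjusted limma p under 0.05 (4.87% of all genes) and 6 had no overlap (3.63%). With no trend removed, the genes with the smallest p were MCM8, TOPBP1, WDHD1 and SUPT16H. MCM8, a helicase relative that acts in recombination, had 6.65, 5.85, 5.93 and 6.17 FPKM in the siPRMT7 libraries and 7.88, 7.26, 7.05 and 7.48 FPKM in the siCtrl libraries (log2 fold change -0.24, SE 0.0532, limma adjusted p = 0.186). TOPBP1, which with TICRR brings GINS and CDC45 to the helicase, had 5.56, 4.51, 4.70 and 4.90 FPKM in the siPRMT7 libraries and 6.35, 6.15, 5.86 and 6.11 FPKM in the siCtrl libraries (log2 fold change -0.27, SE 0.0611, limma adjusted p = 0.189). In both genes the siPRMT7 libraries lay below all siCtrl libraries. WDHD1, which tethers polymerase alpha to the helicase, had 8.18, 8.77, 8.86 and 7.67 FPKM in the siPRMT7 libraries and 9.89, 10.1, 9.65 and 9.91 FPKM in the siCtrl libraries (log2 fold change -0.22, SE 0.0508, limma adjusted p = 0.189). SUPT16H, a subunit of the histone chaperone FACT, had 19.9, 18.7, 19.3 and 19.4 FPKM in the siPRMT7 libraries and 21.9, 22.1, 20.9 and 22.7 FPKM in the siCtrl libraries (log2 fold change -0.17, SE 0.0406, limma adjusted p = 0.189). These groups did not overlap either. The gene that was higher, RNASEH2C, a subunit of RNase H2, shares 28.2% of its exonic bases with KAT5 on the opposite strand and was named after its values were seen.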

How the data were processed

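PC3 RNA was sequenced in 4 siPRMT7 and 4 siCtrl libraries, grouped by sample titles. The authors deposited FPKM values per gene. Per the submitters' processing notes, cutadapt 2.5, HISAT2 2.1.0 and featureCounts 1.6.3 were used. Those notes name a mouse build, whereas start, end and strand of all 58735 genes match GENCODE release 29 on GRCh38. The gene length column of the deposited table equals the union of exons for all 49 members, so bases shared with other genes were counted from that annotation. FPKM multiplied by length was a whole multiple of 1 step per library for 100% of values (tolerance 0.01 fragments), so fragments were rebuilt. The library size behind each FPKM column, divided by its median-ratio size factor, was the same in all 8 libraries, so the values were already scaled between libraries. Rebuilt fragments carry a counting error of at most 13.2% for a member, which covers counting error only.

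A pseudocount of 1 was added and log2 values were fitted in limma (version 3.58.1, R 4.3.3), using its trended variance and two-sided tests, with Benjamini-Hochberg adjustment over 13436 genes and a threshold of 0.05. The test was checked on simulated libraries of the same sizes with 13478 genes tested: it recovered 5.13% of 1.2-fold, 73.33% of 1.5-fold and 92.98% of 2-fold changes. The simulated spread between libraries was assumed, the same for all genes, with no length trend and no outlying library. These rates are therefore not the power of the real comparison. PRMT7 and the CDT1 to GMNN ratio were tested by exact permutation over 70 assignments. The members and lists were chosen with earlier results of these data known. Values per library are given, by rule, for the member with the smallest p in each subcomplex, members with no overlap, CDT1 and GMNN, for PRMT7 and for the 4 other replication genes with the smallest p. Further members with values per library (MCM2, GINS1, PCNA and POLE) were chosen after their values were seen. Alternatives were another pseudocount, other filters, the TPM scale, library weights, voom, a replicate block, leaving out each library, and, added later, removal of a length trend.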

Additional observations from a re-analysis of the deposited data

Results flagged for a closer look

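In 8 of 108 groups of 4 libraries examined, 1 library lay far from the other 3 (by Dixon's gap-to-range ratio), where chance gives about 1 in 20. Of these, 4 were siPRMT7 replicate 2. That library was high for GINS3 (3.03 FPKM, against 2.34 to 2.45 in the other siPRMT7 libraries) and RPA2 (29.6, against 27.5 to 27.7), and low for POLA1 (4.60, against 5.31 to 5.45) and CLSPN (1.88, against 2.97 to 3.01). CDC45 was low in siPRMT7 replicate 4 (3.56 FPKM, against 4.47 to 4.58). Among siCtrl libraries, MCM2 was high in replicate 4 (11.2 FPKM, against 8.99 to 9.36), MCM3 in replicate 1 (31.7, against 30.4 to 30.6) and RPA3 in replicate 3 (5.56, against 4.87 to 4.91).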

How the results depend on the processing

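Under all 16 alternatives 0 of the 49 genes passed, and 30 to 39 were lower when 1 library was left out. Of 21 named genes, 17 of the 49 and 4 others, 328 of 332 values under alternatives kept their direction and side of the threshold. The exceptions were GMNN, at -0.061 to 0.063 without 1 library; DTL had adjusted p of 0.0615 to 0.366 over the alternatives. Genes called over all 13436 were 2, against 58 with library weights, 12 with voom, 5 with no filter, 1 with pseudocount 0.1, 1 with FPKM at least 5 and 0 to 2 without 1 library. The causes were not tested. With FPKM at least 5, 5 of 34 members were lower at an unadjusted p under 0.05, against 5.95% of all genes. Without 1 library 6 to 13 were, with 6 without siCtrl replicate 4 (share given above). The 13 were without siPRMT7 replicate 2, against 5.94% of all genes. The median was -0.10 on the TPM scale, where that of all genes was -0.04, and -0.07 to -0.04 without 1 library. PRMT7 had a log2 difference of -0.14 (exact permutation p = 0.0286) on the TPM scale and -0.13 to -0.07 without 1 library. The CDT1 to GMNN log2 ratio differed by -0.092 to 0.0019 without 1 library. Leaving out 1 library can only raise the number of genes with no overlap, which was 10 to 14 for members and 5.55% to 9.53% for all genes. Replicate numbers share only a label (correlations of same-numbered libraries -0.03 to 0.06). With a replicate block 0 genes were called and 8 members were lower at an unadjusted p under 0.05, against 4.81% of all genes. Depth limits POLA2 and PRIM1 most.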
